A study of Mus musculus with 4 samples.

Results

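Heat-shock proteins are molecular chaperones, which hold or fold newly made and damaged proteins and are coded by genes that the heat-shock factor Hsf1 can switch on when unfolded protein builds up. The HSP70 proteins bind exposed stretches of a client with the help of J-domain proteins and nucleotide exchange factors, the HSP90 proteins finish the folding of kinases and receptors, and Hspd1 with its lid Hspe1 folds proteins inside mitochondria. Hematopoietic stem cells (HSCs) are known for a low rate of protein synthesis and for sensitivity to misfolded protein. The 10 genes described here were chosen by symbol as well-known members of these families, with earlier results of these data known, and are Hspa1a, Hspa1b, Hspa8, Hsp90aa1, Hsp90ab1, Hsph1, Dnajb1, Hspd1, Hspe1 and Hspb1. All 10 of them were matched to an Ensembl gene among the 37140 genes listed in all 4 libraries, and 96 of 97 other genes on 9 chaperone lists were matched as well.

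RNA was sequenced from mouse HSCs, sorted from bone marrow of C57Bl6 mice as lineage-negative cells with cKit, Sca1 and CD150 but without CD48, and from HSCs gated as CD41low CD9low, in Gfi1b WT and Gfi1b KO animals. The study's results name the first population CD41+ CD9+ HSCs, while its methods give no CD41 or CD9 gate for it. Whether it includes CD41low CD9low cells is therefore unclear. The titles of all 4 libraries read Gfi1, the paralog, in place of Gfi1b, and the genotype is given here as the study describes it. Gfi1b is a transcriptional repressor, and KO mice carried 2 floxed Gfi1b alleles and Rosa-Cre, a Cre expressed in all tissues and activated with tamoxifen. The control mice had 1 floxed allele with Rosa-Cre and received tamoxifen according to the methods, while the deposited design describes floxed mice without Cre. Marrow of several mice was pooled before sorting and ages were not stated. There was 1 library for each genotype and population, and the difference between genotypes inside either population therefore rests on a single library each.

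The total count on genes was 41690708 to 50781007 in the HSC libraries and 12732079 to 19123185 in the CD41low/CD9low libraries. Itga2b (CD41) and Cd9 were lower in the CD41low/CD9low libraries, with log2 differences of -1.94 and -0.68 (edgeR's quasi-likelihood test, adjusted p = 2.4e-35 and 0.00014), and the 9 HSC markers summed to 2090.3 to 2623 CPM (each count relative to the library's total, a level not scaled for length) in the 4 libraries. Kit alone held 989 to 1262 CPM of that sum. Slamf1 (CD150) was lower and Ly6a (Sca1) higher in the CD41low/CD9low libraries, with log2 differences of -1.16 and 1.28 (same test, adjusted p = 5.6e-10 and 6.3e-08). KO/WT ratios in HSCs and the CD41low/CD9low pair were 1.30 and 1.98 for Slamf1 and 0.715 and 1.04 for Ly6a. Of the 9 markers, 4 were lower in KO in HSCs and 3 in the CD41low/CD9low pair. The whole-gene count of Gfi1b was 9256 in WT and 49910 in KO HSCs and 611 and 9741 in the CD41low/CD9low pair, but a count per gene does not separate the deleted exons and therefore does not check the deletion. The 8 neutrophil markers summed to 1080.4 CPM in WT and 277 CPM in KO CD41low/CD9low HSCs and all 8 were lower in KO, without a marker at 0, while in HSCs they summed to 404 and 492 CPM. The 4 globin genes, Alas2 and Klf1, markers of red cell precursors, summed to 126 CPM in WT and 8.26 CPM in KO CD41low/CD9low HSCs, with 5 of 5 that passed the filter lower in KO, and to 20.6 and 32.3 CPM in HSCs, where 2 of 6 were lower. The 4 mast cell and basophil markers summed to 26.2 and 0.0523 CPM in the CD41low/CD9low pair and 44.6 and 73.2 CPM in HSCs, with Cma1 and Fcer1a at 0 in both CD41low/CD9low libraries and Mcpt8 at 0 in KO. Markers of B cells, T and NK cells and macrophages summed to at most 57.7 CPM a list in any library, and Cd79a, Ms4a1, Ebf1, Cd3e, Cd3d and Cd3g were at 0 in both CD41low/CD9low libraries. Reads that fell on no gene numbered 80.0 (WT) and 105.3 (KO) for every 100 counts in HSCs and 62.0 and 60.1 in the CD41low/CD9low pair. The part of these differences in the results below was not tested.

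On GRCm38 (GENCODE M21), chromosome 17 holds Hspa1a (ENSMUSG00000091971) at chr17:34969190-34972156 (reverse strand), Hspa1b (ENSMUSG00000090877) at chr17:34956436-34959238 (reverse strand) and Hsp90ab1 (ENSMUSG00000023944) at chr17:45567775-45573271 (reverse strand). The HSP70 partners are Hsph1 (ENSMUSG00000029657) at chr5:149614287-149636376 (reverse strand) and Dnajb1 (ENSMUSG00000005483) at chr8:83608193-83612653 (forward strand), and the other cytosolic genes are Hspa8 (ENSMUSG00000015656) at chr9:40800984-40810087 (forward strand), Hsp90aa1 (ENSMUSG00000021270) at chr12:110690605-110702728 (reverse strand) and Hspb1 (ENSMUSG00000004951) at chr5:135887919-135889563 (forward strand). The mitochondrial pair is Hspd1 (ENSMUSG00000025980) at chr1:55077835-55088243 (reverse strand) and Hspe1 (ENSMUSG00000073676) at chr1:55088132-55091307 (forward strand). Each value below covers all annotated exons of a gene.

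Sequence matters for these genes in 2 ways, through the promoters that carry heat shock elements and through copies that make reads ambiguous. Hspa1a and Hspa1b code for the stress-inducible HSP70 and lie in a row on the reverse strand of chromosome 17, with 9951 bases between them. The 150 bases before each start are shown because the pair differed at 1 of these 150 positions and at 3 of 250, and capitals mark the match to GAANNTTC, 2 units of the heat shock element facing each other. These stretches (GRCm38.p6, RefSeq, reverse strand) lie at chr17:34972157-34972306 and chr17:34959239-34959388, outside annotated exons.
Hspa1a: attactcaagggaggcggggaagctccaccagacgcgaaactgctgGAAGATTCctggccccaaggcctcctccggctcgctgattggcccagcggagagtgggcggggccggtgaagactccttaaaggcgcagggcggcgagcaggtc
Hspa1b: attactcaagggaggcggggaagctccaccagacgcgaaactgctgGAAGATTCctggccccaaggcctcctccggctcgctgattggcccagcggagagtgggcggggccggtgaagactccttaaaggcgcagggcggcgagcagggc

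Hspd1 and Hspe1 are transcribed away from each other on chromosome 1, where their annotated 5′ ends overlap by 112 bases that can leave reads ambiguous, and they share a single stretch with units in a row. The 30 bases at chr1:55088053-55088082 (forward strand) are shown for this pair and lie within an annotated exon of Hspd1, and the 30 bases at chr5:135887801-135887830 (forward strand) are shown for Hspb1, a small heat-shock protein with 2 separate matches.
Hspe1: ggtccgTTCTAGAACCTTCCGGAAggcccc
Hspb1: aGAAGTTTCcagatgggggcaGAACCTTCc
Capitals again mark the units. Promoters of 7 members were held in the table used (250 bases before to 50 after each start), among which 6 had a match to GAANNTTC and 3, Hsph1, Hspd1 and Hspe1, a match to a 3-unit form on either strand, in which GAANNTTC is followed by NN and a further GAA and which therefore contains the shorter motif. Of all 32851 promoters of this length, 7.86% held GAANNTTC and 0.603% the 3-unit form. The units differ, because a member counted when any of its promoters matched. Hspd1 and Hspe1 also count the same stretch, and the promoters of Hspa1a and Hspa1b are nearly identical. Such a match is a description of the letters and not a site of binding.

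The Hspa1a transcript shared 66.3% of its 50-base windows with transcripts of other genes, mostly Hspa1b, and Hspa1b shared 62.3%. For Hspa8 the share was 74.8% and for Hsp90aa1 58.5%, largely with pseudogenes, and for Hspd1 and Hspe1 it was 44.8% each. Hspb1 shared 51.6% with the pseudogene Hsp25-ps1. Reads from such stretches can have been left out as not uniquely aligned or assigned to the wrong copy, so that the counts of these genes are uncertain, and those of Hspa1a and Hspa1b most of all in relation to each other. Hsph1, with 0%, Dnajb1, with 0.441%, and Hsp90ab1, with 4.49%, were nearly free of shared sequence. The read length is not given in the sources used here, and the window of 50 bases is a round choice.

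**Figure D1:**
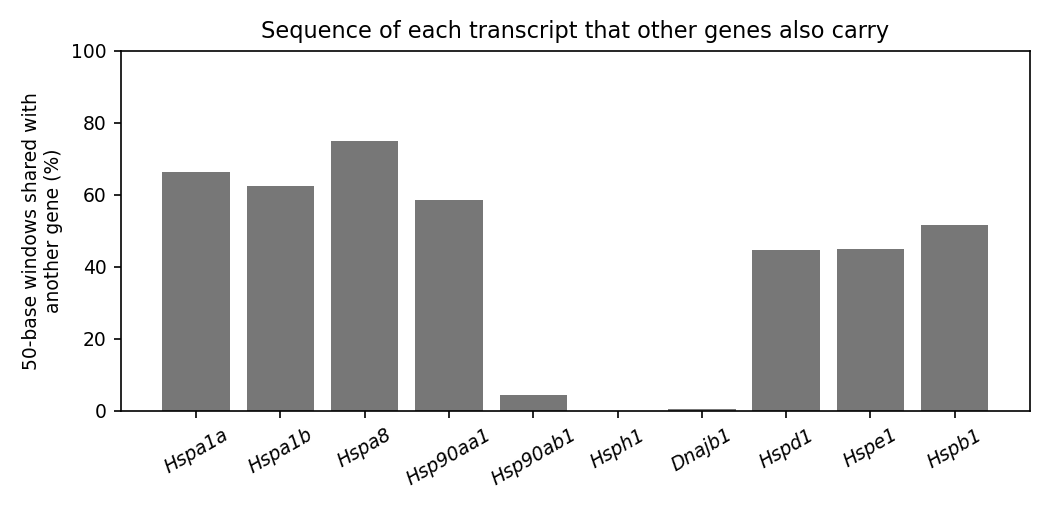
Percent of the 50-base windows of the longest protein-coding transcript of each gene (vertical axis) that also occur in a transcript of another gene, on either strand. Hspa8 has the highest bar at 74.8%, while Hsph1, Dnajb1 and Hsp90ab1 lie at or below 4.49%.

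Levels of these chaperones spanned a wide range that was similar in the 4 libraries. Together the 10 genes took 0.435% of the counts in WT HSCs, 0.356% in KO HSCs, 0.399% in WT and 0.379% in KO CD41low/CD9low HSCs. Per exon length, as TPM (a level scaled for exon length and library total), Hsp90ab1 was the highest member in each library, with 2316 TPM in WT HSCs, followed by the constitutive HSP70 gene Hspa8 with 764 TPM, Hsp90aa1 with 539.8 TPM and Hspd1 with 394 TPM. Hsp90ab1 ranked at place 25 to 45 among all genes by this level, Hspa8 at place 105 to 138. Hspe1 and Dnajb1 were level in WT HSCs with 177 TPM each. Hsph1, Hspa1b and Hspa1a were far lower, with 22.1, 19.3 and 13.1 TPM in the same library. TPM values of genes with shared sequence may be too low for the reason given above.

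**Figure D2:**
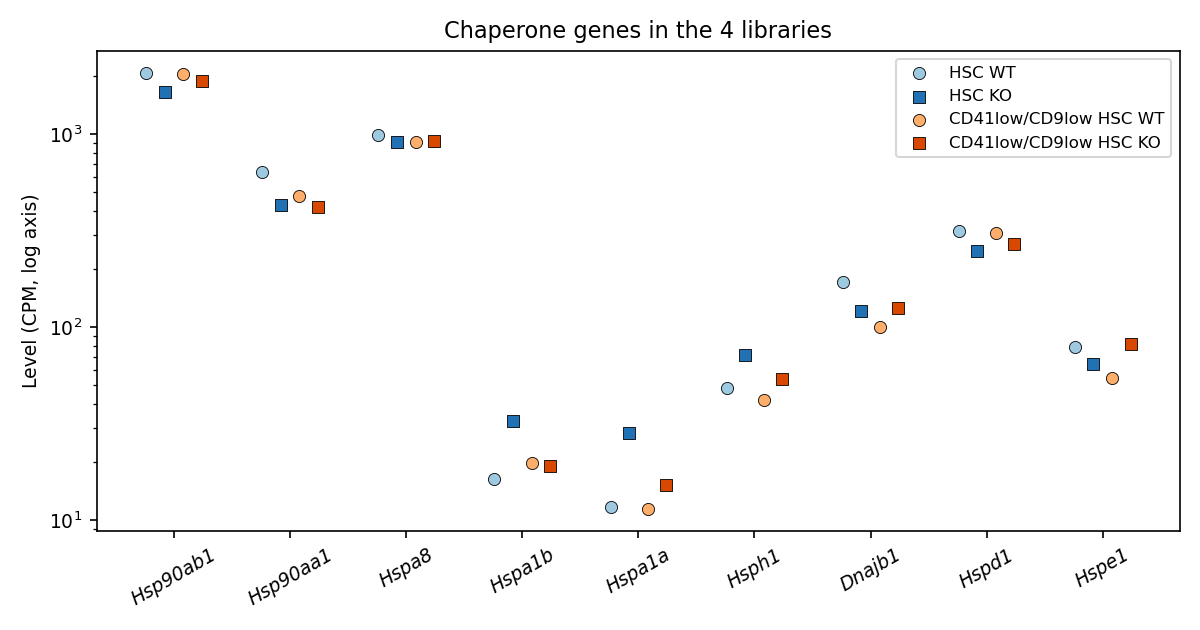
Level of 9 of the 10 genes in CPM (log axis) in the 4 libraries, 1 point per library. Hsp90ab1 lies at 1655 to 2087 CPM and Hspa1a at 11.4 to 28.1 CPM; Hspb1, with at most 12 counts, is left out.

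The stress-inducible HSP70 genes Hspa1a and Hspa1b were higher in KO than in WT HSCs, whereas in CD41low/CD9low HSCs the KO and WT libraries lay closer together. The counts of Hspa1a were 592 and 1172 for WT and KO HSCs, equal to 11.7 and 28.1 CPM, and 145 and 291 for the CD41low/CD9low pair, equal to 11.4 and 15.2 CPM. The KO HSC library thus stood above the other 3. After size-factor normalization the KO/WT ratio of Hspa1a was 2.44 in HSCs (95% counting interval 2.21 to 2.70, n = 1 library per genotype), and 5.36% of the 15910 genes had a higher one. The CD41low/CD9low pair gave 1.34 (1.09 to 1.64). Hspa1b had 825 counts in WT and 1363 in KO HSCs, or 16.2 and 32.7 CPM, and 250 and 363 in the CD41low/CD9low pair, or 19.6 and 19.0 CPM. Again the KO HSC library was the high one, and the remaining libraries lay within a narrow range. For Hspa1b the HSC ratio was 2.04 (1.87 to 2.23), and the CD41low/CD9low pair gave 0.968 (0.822 to 1.14). These intervals cover counting error only, and variation between preparations is unknown. In RNA from sorted populations, fewer cells with a transcript and less of it per cell cannot be told apart.

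Hspa1a and Hspa1b were the 2 members above the cutoff of 1.5 in HSCs, and 0 members were below 0.6. At these cutoffs, which are those of the study and not a test, 14.1% of all genes tested in HSCs counted as up and 10.3% as down. Hsph1 was just inside the range between the cutoffs, at 1.499, or 1.40 with the correction for exon length described below. On the log2 scale, subtracting the HSC ratio from the CD41low/CD9low ratio gave -0.87 for Hspa1a (counting interval -1.19 to -0.55) and -1.07 for Hspa1b (-1.34 to -0.81). No fit with a residual degree of freedom can test this difference. In HSCs all 14 immediate-early genes listed, which cells switch on within minutes of a stimulus, were lower in KO, with a summed level of 5520.3 CPM in WT and 2029 CPM in KO and none at 0. Of 13 that passed the filter in the other population 9 were lower, at 832 and 805 CPM with Atf3 at 0 in the WT library. Their part in the result for Hspa1a and Hspa1b was not tested.

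**Figure D3:**
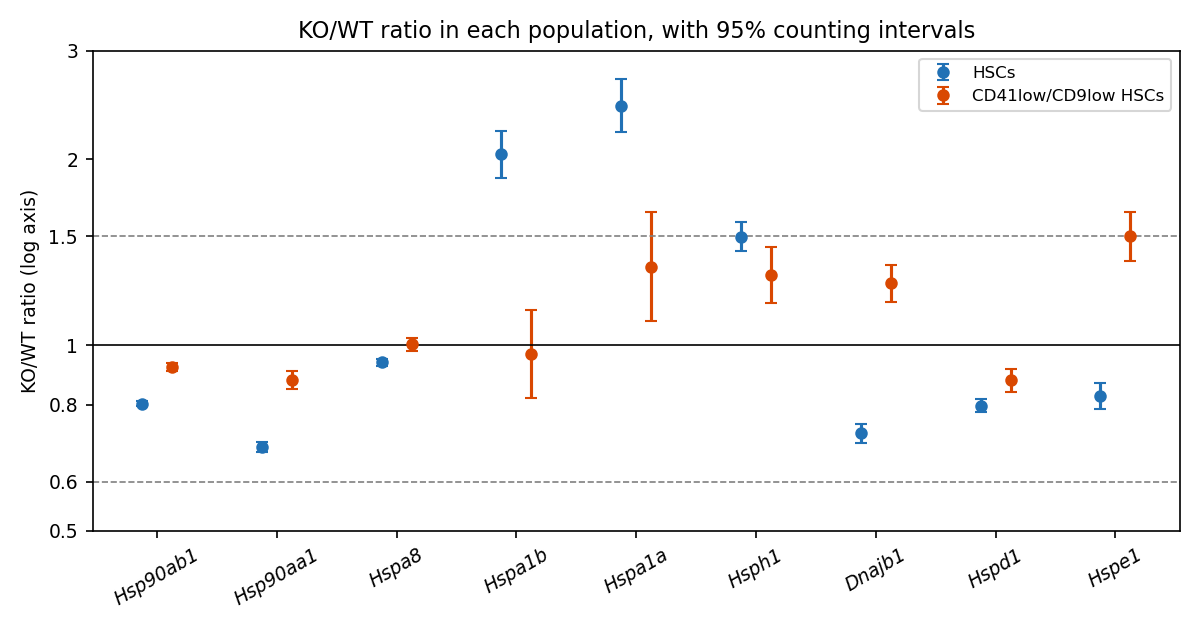
KO/WT ratio of normalized counts (log axis) in HSCs (blue) and CD41low/CD9low HSCs (orange), with the 95% interval for counting error and dashed lines at the cutoffs 1.5 and 0.6. Hspa1a and Hspa1b lie at 2.44 and 2.04 in HSCs, and Dnajb1 and Hspe1 lie on opposite sides of 1 in the populations.

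Hspa8, the constitutive cytosolic HSP70, was nearly level over the 4 libraries, at 987 CPM in WT HSCs, 913 CPM in KO HSCs, and 916 and 918 CPM in the CD41low/CD9low pair. Its KO/WT ratio was 0.937 (0.925 to 0.950) for HSCs against 1.003 (0.980 to 1.03) for the CD41low/CD9low pair. Because both are counted in the same library, the inducible genes can be read against Hspa8 without any normalization between libraries. Hspa1a and Hspa1b together made up 2.75% (exact 95% interval 2.61 to 2.89) of the counts of the 3 genes in WT HSCs and 6.24% (6.01 to 6.48) in KO HSCs. In the CD41low/CD9low pair the share was 3.28% (2.97 to 3.61) in WT and 3.59% (3.33 to 3.87) in KO, and these intervals overlap. Between the copies, Hspa1a took 41.8% of their joint counts in WT HSCs and 46.2% in KO HSCs, and 36.7% and 44.5% in the CD41low/CD9low pair.

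Partners of HSP70 did not follow one direction. Hsph1 (Hsp110), which exchanges nucleotide on HSP70 and helps to dissolve aggregates, had 48.2 CPM in WT and 71.4 CPM in KO HSCs, and 41.7 and 54.1 CPM in the CD41low/CD9low pair. The KO library was the higher one in both populations, with ratios of 1.499 (1.42 to 1.58) and 1.30 (1.17 to 1.44). Against Hspa8 in the same library, Hsph1 took 4.66% of the counts of both in WT and 7.25% in KO HSCs, and 4.36% and 5.57% in the CD41low/CD9low pair. Dnajb1, the J-domain protein that delivers clients to HSP70 and is itself a target of Hsf1, had 170.3 CPM in WT and 120.9 CPM in KO HSCs. Its CD41low/CD9low levels were 100.1 CPM in WT and 125.9 CPM in KO. The KO library was the lower one in HSCs and the higher one in CD41low/CD9low HSCs, with ratios of 0.719 (0.695 to 0.745) and 1.26 (1.18 to 1.35).

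**Figure D4:**
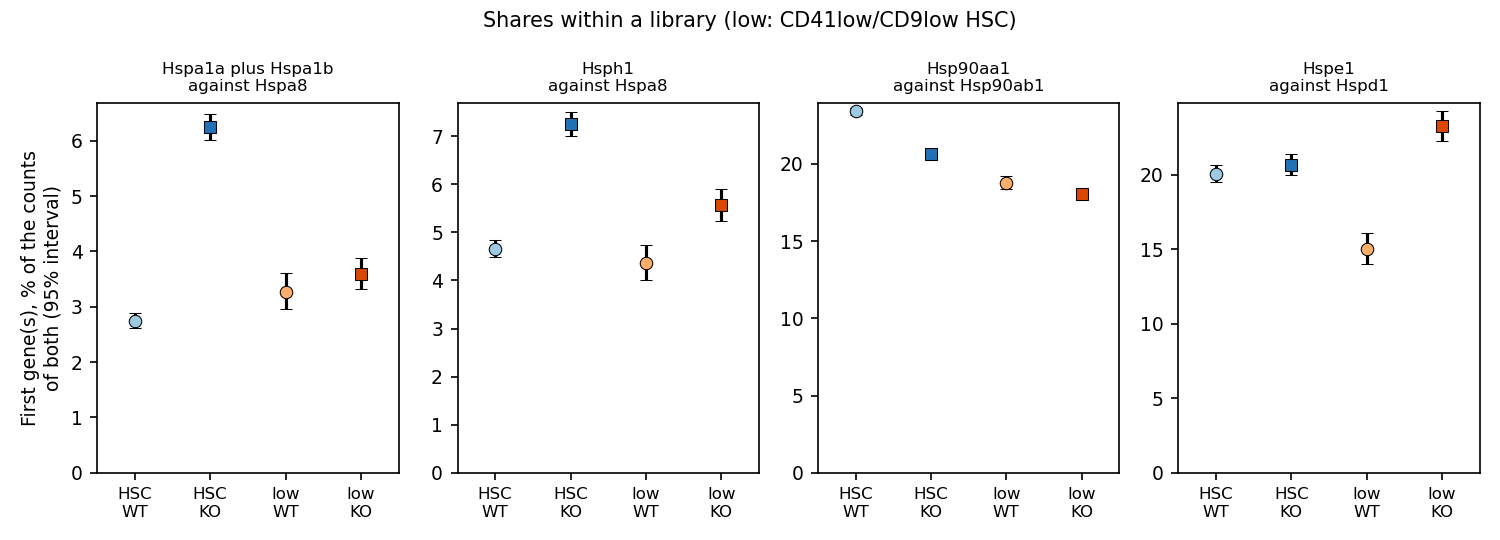
Share of the first gene or genes in the joint counts with the second gene in each library (percent, with the exact 95% interval), where low stands for CD41low/CD9low HSCs. The inducible HSP70 genes make up 2.75% in the WT and 6.24% in the KO HSC library, while their intervals overlap in the CD41low/CD9low pair.

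The cytosolic HSP90 genes were lower in KO in both populations, by less than the cutoff. Hsp90aa1, the inducible form, had 638 CPM in WT HSCs, 430.1 CPM in KO HSCs, and 477 and 417 CPM in the CD41low/CD9low pair. The WT HSC library stood above the other 3. The ratio was 0.683 (0.671 to 0.696) for HSCs, against 0.877 (0.848 to 0.906) for the CD41low/CD9low pair. Hsp90ab1, the constitutive form, had 2087 CPM in WT HSCs, 1655 CPM in KO HSCs, and 2060.4 and 1896 CPM in the CD41low/CD9low pair, with ratios of 0.803 (0.795 to 0.811) and 0.921 (0.907 to 0.936). Hsp90aa1 made up 23.4% of the counts of both genes in WT HSCs and 20.6% in KO HSCs, and 18.8% and 18.04% in the CD41low/CD9low pair.

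The mitochondrial chaperonin Hspd1 was slightly lower in KO in both populations, whereas its lid Hspe1 was lower in KO HSCs and higher in KO CD41low/CD9low HSCs. Hspd1 had 313 CPM in WT HSCs, 247 CPM in KO HSCs, and 307 and 268 CPM in the CD41low/CD9low pair, with ratios of 0.798 (0.778 to 0.818) and 0.877 (0.841 to 0.914). Hspe1 had 78.6 and 64.1 CPM in HSCs, and 54.2 and 81.2 CPM in WT and KO CD41low/CD9low HSCs. Its ratios were 0.827 (0.787 to 0.869) and 1.5005 (1.37 to 1.64). Hspe1 was the 1 member above the cutoff in CD41low/CD9low HSCs, by a margin in the fourth digit, and 0 of the 9 members that passed the filter there were below 0.6, against 13.5% of all genes tested up and 12% down. Relative to Hspd1, Hspe1 took 20.1% and 20.6% of the joint counts in WT and KO HSCs, with overlapping intervals (19.5 to 20.6 and 20.0 to 21.4). In the CD41low/CD9low pair the intervals did not overlap, with a share of 15.02% (13.998 to 16.1) in WT and 23.2% (22.2 to 24.3) in KO.

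Hspb1 (Hsp25), a small heat-shock protein that holds unfolded clients, was barely detected. It had 10 counts in WT and 12 in KO HSCs, giving a ratio of 1.48 (0.586 to 3.83). In both CD41low/CD9low libraries it had 0 counts, which allows up to 0.236 CPM in WT and 0.157 CPM in KO. These depths can show no difference for this gene, and reads on its shared sequence may not have been counted.

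The genotype effect was also estimated in 1 additive fit to all 4 libraries, in which the populations stand in for replicates, although the methods describe marrow pooled by genotype before sorting so that both may come from the same animals, and 1 residual degree of freedom remains (edgeR's quasi-likelihood test, Benjamini-Hochberg adjustment over 16262 genes). None of the 10 members passed an adjusted p of 0.05, while 1.62% of all genes were called up and 1.19% down, or 2.81% in either direction. With a finite prior, which lets each gene's own spread count, 0 members passed as well, against 0.566% up and 0.215% down, or 0.781% of all genes. DESeq2 called 0 members. Without the finite prior, 3 members were up and 1 down at an unadjusted p under 0.05. Many other genes passed this limit too, as Hspa1b, at 0.0478 in edgeR's quasi-likelihood test, ranked at place 1718 of 16262 genes. The log2 difference, KO against WT, was 0.86 ± 0.28 (SE) for Hspa1a with an adjusted p of 0.069, 0.48 ± 0.18 for Hsph1 with 0.16, and -0.38 ± 0.14 for Hsp90aa1 with 0.177. For Hspa1b it was 0.50 ± 0.25 with an adjusted p of 0.452. Over the alternatives the adjusted p of Hspa1a ran from 0.0889 to 0.584, and it was 0.162 in the fit with a finite prior. Hspa1a, Hsph1, Hsp90aa1, Hsp90ab1 and Hspd1 were on the same side of 1 in both populations.

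Between the populations, across genotypes, Dnajb1 was lower in CD41low/CD9low HSCs by the same test. Its log2 difference was -0.41 ± 0.16 (SE), with an adjusted p of 0.0408 in edgeR's quasi-likelihood test, and both CD41low/CD9low libraries lay below WT HSCs but on either side of KO HSCs. This call did not hold with DESeq2 (adjusted p = 0.188), in the fit with a finite prior (0.153), with median-of-ratios scaling (0.084) or with at least 50 counts required. The share of all genes called was 9.11% up and 13.7% down, and 7.36% and 10.6% with a finite prior. Of the remaining members, Hsp90aa1 had a log2 difference of -0.29 ± 0.14 (adjusted p = 0.135) and Hsph1 of -0.37 ± 0.18 (0.125). Hsp90ab1 and Hspd1 had log2 differences of 0.03 ± 0.13 and -0.02 ± 0.15. The 7 megakaryocyte and platelet markers summed to 1477 and 1729 CPM in HSCs and 479 and 494 CPM in the CD41low/CD9low pair, with Gp1bb at 0 in its WT library, and their part in this difference was not tested. The files list 38293 genes for HSCs and 41214 for CD41low/CD9low HSCs, so that they were counted on different annotations, and population and processing cannot be told apart.

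Among the other 96 genes on the chaperone lists, few were past the cutoffs, and in KO HSCs most lay below 1. Of 92 that passed the filter in HSCs, 3 were up and 0 down, against 14.1% and 10.3% of all genes tested. Those shares include genes with few counts, whose ratios vary more by counting error. With at least 50 counts required in a library of the pair, 1431 of 13315 genes were up and 792 down in HSCs. The CD41low/CD9low pair then had 982 of 12042 up and 702 down. Of the same 92, 65 were below 1 and the median ratio was 0.888, against 49.98% below 1 and a median of 1 over all genes tested. For the CD41low/CD9low pair 3 of 90 were up and 2 down, with 51 below 1 and a median ratio of 0.971, against 1.006 and 48.96% over all genes. In HSCs the ratio moved with exon length: its median over genes with at least 50 counts was -0.16 (log2) for lengths up to 2601 bases and 0.18 for lengths from 6687 bases, while the corresponding medians for the shortest and longest genes were -0.0046 and 0.024 in CD41low/CD9low HSCs. After a correction for exon length 65 list genes, not the same ones on every list, were below 1 in HSCs, with a median ratio of 0.919. Among the members, Hspe1 moved from 0.827 to 0.948, Hsp90aa1 from 0.683 to 0.712 and Hsp90ab1 from 0.803 to 0.852. Hspd1 moved from 0.798 to 0.851, Dnajb1 from 0.719 to 0.764 and Hsph1 from 1.499 to 1.40. Each of these corrected ratios lay outside the counting interval of the uncorrected one.

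The 8 subunits of TRiC (CCT), the ring that folds actin and tubulin, were all below 1 in KO HSCs, within a narrow range from 0.768 for Tcp1 to 0.831 for Cct5, none of them past the cutoff. With the correction for exon length they ran from 0.737 to 0.908. Of the same genes 7 of 8 were below 1 in CD41low/CD9low HSCs, from 0.810 for Cct6a to 1.06 for Tcp1. Prefoldin is a complex that hands clients to TRiC, and its list also holds related genes. The 8 genes of this list were likewise all below 1 in HSCs (median 0.812, or 0.887 with that correction). Pfdn6 was the lowest at 0.680 and Uri1 the highest at 0.935. In CD41low/CD9low HSCs 6 of 8 were below 1, where Vbp1 was lowest at 0.689 and Pfdn4 highest at 1.05. All 10 genes on the list of mitochondrial chaperones and proteases were below 1 in HSCs, from 0.685 for the protease subunit Clpp to 0.972 for Yme1l1, but 9 of 10 with the correction for exon length (highest 1.02) and 4 of 10 in CD41low/CD9low HSCs, where Clpx was highest at 1.36 and Htra2 lowest at 0.879. Of mitochondrial genes placed on other lists, Trap1, Dnajc15 and Dnajc19 were above 1 in HSCs, at 1.04, 1.16 and 1.05. Dnaja3, Dnajc11 and Hspa9 were below 1 there, at 0.976, 0.865 and 0.850. For TRiC, prefoldin and the mitochondrial list, 0 genes were called in either direction by edgeR's quasi-likelihood test of genotype, against 2.81% of all genes. At an unadjusted p under 0.05 it gave 2 genes of the prefoldin list down and 0 on the other 2 lists. In that test an unadjusted p of 0.0478 stood at place 1718 of 16262 genes. DESeq2 called 0 genes on the 3 lists.

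**Figure D5:**
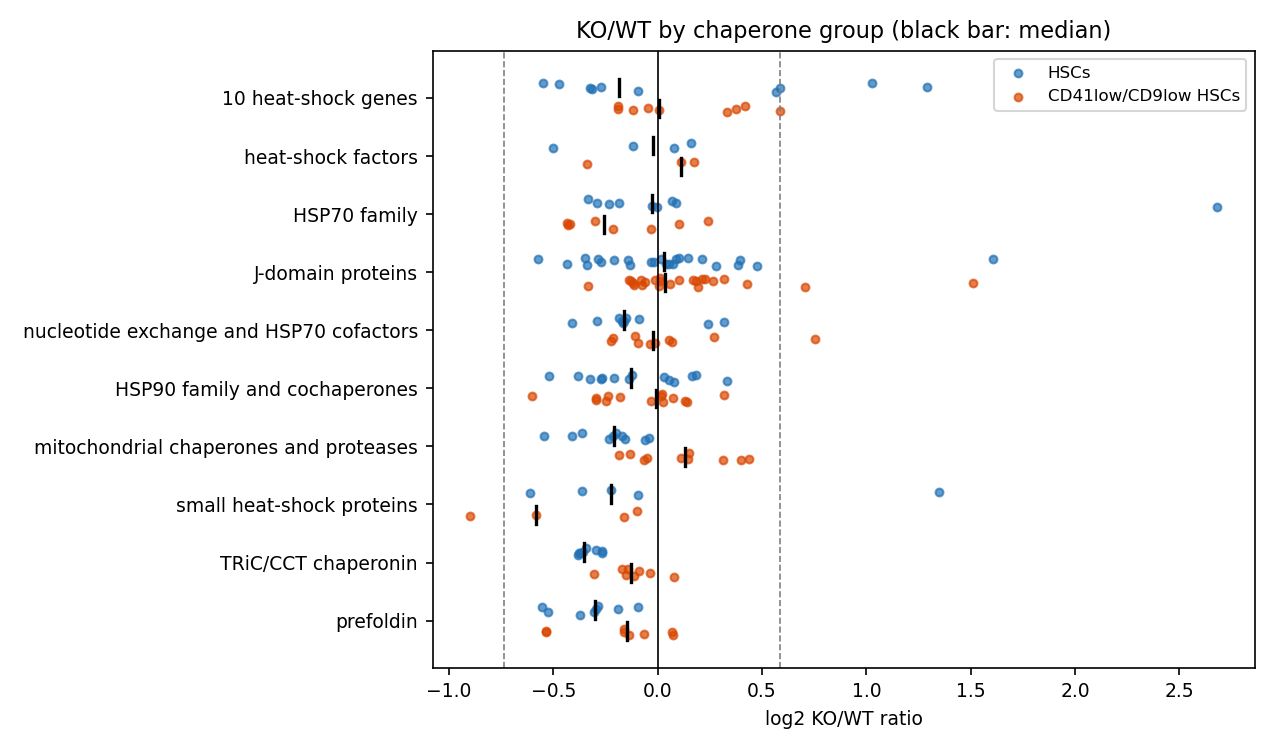
Log2 KO/WT ratio of each gene (points) by chaperone group in HSCs (blue) and CD41low/CD9low HSCs (orange), with the group median as a black bar and dashed lines at the cutoffs. The TRiC points in HSCs lie together at ratios of 0.768 to 0.831; Cryab, with 0 counts in KO CD41low/CD9low HSCs, has no point there but enters the median.

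Among J-domain proteins Dnajb5 was the 1 list gene up in both populations and the 1 called across them. It had 155 counts in WT and 382 in KO HSCs and 61 and 261 in the CD41low/CD9low pair, with ratios of 3.04 (2.52 to 3.69) and 2.85 (2.15 to 3.83). Its log2 difference in the additive fit was 1.55 ± 0.41 (SE; edgeR's quasi-likelihood test, adjusted p = 0.00927), which did not hold in the fit with a finite prior (adjusted p = 0.0871). DESeq2 called 0 J-domain genes up. The 1 call among 92 list genes is 1.09%, against 2.81% of all genes. Dnajb9, a J-domain protein of the endoplasmic reticulum (ER), was above the cutoff in CD41low/CD9low HSCs, at 1.63 (1.39 to 1.91), and had an HSC ratio of 0.671 (0.634 to 0.711). Dnaja4 was the lowest of this list in CD41low/CD9low HSCs at 0.793. The 24 J-domain genes had median ratios of 1.02 and 1.03, and 13 and 15 of them were above 1.

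Of the HSP70 cofactors, Bag3, which links HSP70 to autophagy and is a target of Hsf1, was up in CD41low/CD9low HSCs, with 102 counts in WT and 258 in KO and a ratio of 1.69 (1.34 to 2.14). The HSC libraries held 629 and 603 counts of it, a ratio of 1.18 (1.06 to 1.33). Bag4 was the highest cofactor in HSCs at 1.25 and Bag1 the lowest in both populations at 0.752 and 0.855. On the list of HSP90 genes and cochaperones, 0 of 14 were past a cutoff in either population, against 24.4% of all genes tested in HSCs and 25.5% in CD41low/CD9low HSCs. These shares again include genes with few counts. The 14 include Pphln1, which is not known as an HSP90 cochaperone. Cdc37, which loads kinases on HSP90, was lowest in HSCs at 0.697 and Cdc37l1 highest at 1.26, while in CD41low/CD9low HSCs Fkbp5 was lowest at 0.658 and Unc45a highest at 1.25.

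On the HSP70 list Hspa12a was past the cutoff in HSCs on few reads, with 5 counts in WT and 26 in KO, a ratio of 6.42 (2.43 to 21.4), and it had 0 counts in both CD41low/CD9low libraries. It was named after its values were seen, as was Cryab below, and Hspa9 and Hsf1 are given for their roles. Hyou1 was the highest of the HSP70 genes with at least 50 counts in HSCs at 1.06, and Hspa5, the HSP70 of the ER, the lowest at 0.793. Hspa2 was highest in the other population at 1.18 and Hspa12b lowest at 0.740. Hspa9, the mitochondrial HSP70, had ratios of 0.850 and 0.861. Of the small heat-shock list, Serpinh1, a collagen chaperone of the ER, was up in HSCs, with 229 counts in WT and 473 in KO and a ratio of 2.55 (2.17 to 2.998), and had a ratio of 0.932 (0.728 to 1.20) in CD41low/CD9low HSCs. Hspb6, at 0.777, was the lowest in HSCs among those with at least 50 counts. Hspb11, listed by its symbol and also known as the transport protein Ift25, was down in CD41low/CD9low HSCs at 0.536 (0.421 to 0.681). Cryab had 17 counts in the WT library of this pair and 0 in the KO library. Hsf1 had ratios of 1.06 (0.986 to 1.13) and 1.08 (0.965 to 1.21), both intervals including 1. Hsf2 was the highest of the factor list at 1.12 and 1.13, and Hsbp1, which binds Hsf1, the lowest with at least 50 counts at 0.921 and 0.791.

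Between the populations, 14 of 92 list genes were higher and 17 lower in CD41low/CD9low HSCs (edgeR's quasi-likelihood test), which is 33.7% against 22.9% of all genes called in either direction. In the fit with a finite prior there were 11 and 14, and the share of all genes was 18%. Hspa5, Dnajb9, Hspa13 and Hsp90b1, which reside in the ER, fell, with log2 differences of -0.73 ± 0.14, -1.28 ± 0.20, -0.79 ± 0.18 and -0.41 ± 0.14 (SE) and adjusted p-values of 6.3e-06, 1.5e-08, 0.000125 and 0.0242 in this test, the last of which did not hold with the finite prior (0.067). These were named because they passed the test, and among other genes of the ER on the lists Sil1 was called higher, Hyou1 had a log2 difference of 0.34 and Dnajb11 of 0.01. Other HSP70 genes that fell were Hspa4 (-0.54 ± 0.15) and Hspa4l (-0.60 ± 0.16), relatives of Hsph1, whereas Hspa12b rose by 0.68 ± 0.20. Of the J-domain genes, Dnajb2 rose by 1.77 ± 0.24 and Dnajc8 by 0.53 ± 0.16. Dnajb4, Dnajb14, Dnajc10 and Dnajc13 fell, with log2 differences from -0.78 to -0.50.

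On the list of HSP90 genes and cochaperones, Ppp5c, Cdc37, Fkbp4 and Unc45a were higher in CD41low/CD9low HSCs, with log2 differences of 0.91 ± 0.17, 0.70 ± 0.15, 0.59 ± 0.15 and 0.47 ± 0.18, and Chordc1 was lower, with -0.53 ± 0.16. Pphln1, which stands on this list but is not known as an HSP90 cochaperone, was lower with -0.86 ± 0.18. The HSP70 cofactors Hspbp1, Stub1 and Sil1 were higher by 0.62, 0.62 and 0.47. Of the mitochondrial list Lonp1 and Htra2 were higher by 0.58 and 0.51, while Yme1l1 had a log2 difference of -0.80. The TRiC subunits Tcp1, Cct6a and Cct8 had log2 differences of -0.45, -0.45 and -0.38, and on the prefoldin list Vbp1 was at -0.90 and Pfdn5 and Pdrg1 at 0.84 and 0.44. The adjusted p of Unc45a, Sil1, Tcp1, Cct8 and Pdrg1 was above 0.05 in the fit with a finite prior (0.104, 0.0712, 0.0561, 0.069 and 0.0597).

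The likeness of members was described by the distance between their log2 normalized counts over the 4 libraries, centred for each gene, among 12051 other protein-coding genes with at least 50 counts in a library. Hspd1 and Hsp90ab1 were near each other, at a distance of 0.067, with Hsp90ab1 at place 17 in the order of Hspd1 and Hspd1 at place 25 in that of Hsp90ab1. Hspa1a and Hspa1b were 0.43 apart, at place 86 and 309 in each other's orders. The nearest genes were Mtcp1 to Hspa1a, Gsn to Hspa1b, Cdc23 to Hspa8, Nop58 to Hsp90aa1, Arl1 to Hsp90ab1, Zfp846 to Hsph1, Slc25a17 to Dnajb1, Mrpl58 to Hspd1 and Ccdc125 to Hspe1, at distances of 0.018 to 0.094. The number of genes within a distance of 0.1 ran from 1 for Hspa1a and Hspa1b to 147 for Hspa8.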

How the data were processed

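The authors sorted cells by flow cytometry, prepared stranded mRNA libraries, aligned reads to mm10 with TopHat 2.0.10, processed them with Samtools and counted them on Ensembl genes with HTSeq. The deposited counts per gene are raw counts, and the HTSeq settings, strand included, and annotation releases are not given in the sources used here. Closing lines of unassigned reads (60.1 to 105.3 on no feature for every 100 counts on genes) were left out of library totals.

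Within each WT and KO pair, counts were scaled with median-of-ratios size factors, and a gene entered when either library held 10 or more counts of it. A KO/WT ratio over 1.5 is termed up and one under 0.6 down. Intervals are exact (Clopper-Pearson) 95% intervals of the KO share of a gene's counts, except for differences of log2 ratios, which have a normal interval from the counts. They cover counting error only; PCR copies are not independent molecules. A count of 0 allows up to 3 counts, or 0.059 to 0.236 CPM depending on the library.

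edgeR 4.0.16 (glmQLFit and glmQLFTest, TMM) was fitted to all 4 libraries with genotype and population as terms. Its prior degrees of freedom were infinite, so that each gene's own spread had no weight, and a fit with a finite prior (10.63) was added after the data were seen. Each SE printed is the size of the log2 difference divided by the square root of the F statistic of the first fit. Such an SE therefore holds no spread of the gene's own either. DESeq2 1.42.0 was an alternative, with R 4.3.3, Python 3.11.15, numpy 2.4.6, scipy 1.17.1 and pandas 2.3.3. The scripts were tested on simulated data. Other alternatives were TMM, total-count and 4-library scaling, filters on low counts, a pseudocount, a lower cutoff of 1/1.5 and a running median over 500 genes of similar exon length.

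Coordinates and exon lengths are of GENCODE M21 (GRCm38), and promoters of RefSeq (GRCm38.p6). Named genes are the members, Gfi1b, gate genes, the list genes with the highest and lowest ratio in each population, those called in both populations or by the test, and each member's nearest gene. Mitochondrial genes on other lists were named as well. Members and lists were chosen with earlier results of these data known. Hspa14 was not matched. One marker is not reported here.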

Additional observations from a re-analysis of the deposited data

Results flagged for a closer look

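Members whose counting intervals lay on opposite sides of 1 in the populations were singled out, as 16.1% of 14144 genes did. Dnajb1 had a KO/WT ratio of 0.719 in HSCs and 1.26 in CD41low/CD9low HSCs. Hspe1 had 0.827 and 1.5. The difference between the populations was not tested, because 4 libraries leave no residual degree of freedom for it. On the log2 scale, subtracting the HSC ratio from the CD41low/CD9low ratio gave 0.81 (counting interval 0.70 to 0.92) for Dnajb1 and 0.86 (0.71 to 1.01) for Hspe1.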

How the results depend on the processing

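The count of members up in CD41low/CD9low HSCs, 1 (Hspe1), was 0 with TMM factors, with scaling to the total count and with a pseudocount of 1. The count of members down between populations, 1 (Dnajb1), was 0 with median-of-ratios scaling, with at least 50 counts required, with DESeq2 and in the fit with a finite prior, which was chosen after seeing the data. The cause was not tested. With the correction for exon length 3 members were up in HSCs, Hspb1 with 12 counts among them. No called member reversed. With at least 50 counts required, 1431 genes in place of 2248 were up and 792 in place of 1639 down in HSCs, and 982 in place of 1998 and 702 in place of 1788 in CD41low/CD9low HSCs. The fit of genotype called 263 genes up and 194 down, against 145 and 95 with median-of-ratios scaling, 80 and 48 with at least 50 counts, 70 and 30 with DESeq2 and 92 and 35 with a finite prior. Between the populations DESeq2 called 879 genes up in place of 1481. No paired analysis was possible because the labels give no replicate numbers and each group has 1 library, so that no library could be left out either. Depth limits Hspb1, at most 12 counts.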
